A study of Mus musculus with 6 samples.

Results

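The cells under study were treated mouse fibroblasts, labelled as Tet3 induced neurons and sampled at a time labelled 7 dpi. Primary neurons were the reference, with 1 array each. The comparison took, for every probe, the deposited log2 value of the 7 dpi array minus that of the neuron array, and kept the probes that were well above background on at least 1 of the 2 arrays. These were 34430 of 39429 probes (87.3%) and, by gene symbol, 18730 of 20659 genes. It used 2 of the series' 6 arrays. The other 4 hold mouse embryonic fibroblasts labelled with no treatment (MEF) and the treated fibroblasts at 1, 3 and 5 dpi, and their levels are given beside some genes for orientation. All cells came from mouse embryos, and the fibroblasts from E13.5 embryos of the outbred ICR stock. Fibroblasts were infected on 2 successive days with adenoviral supernatants in polybrene, and their medium was in part replaced by a neuronal medium with forskolin, an activator of adenylyl cyclase, 3 and 5 days after the second infection. No group is labelled as virus without Tet3, so virus, medium and Tet3 cannot be told apart. The reference is labelled as embryonic primary neurons of E13.5, and how they were grown is not stated in the sources used here.

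A fibroblast that is turned into a neuron has to switch on the neuronal cytoskeleton, the machinery for vesicle release and the receptors for transmitter, and to switch off the collagens and transcription factors of connective tissue. Tet3 is a dioxygenase that oxidises 5-methylcytosine in DNA, the first step of active demethylation. Neurons also carry a record of where in the body they arose. Forebrain neurons express the transcription factors of the telencephalon, and cells of the trunk express the Hox genes that fit their level along the body axis.

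With 1 array a group there were no replicates and no test between the groups was possible, so every difference below describes a pair of arrays and not the spread between cultures. Levels are log2 values with the 75th percentile of each array at 0, and a difference of 1 is a 2-fold difference. The error model of the scanner software gave a median error of 0.20 on the log2 scale for a difference between both arrays. Spots printed several times had a mean SD of 0.14 on the 7 dpi array and 0.09 on the neuron array. Where just 1 of both arrays rose well above background, the difference is a bound, written "at least". Both arrays were read in the same scan, as were those of 3 and 5 dpi, while MEF and 1 dpi were read in another. Of all probes, 77.7% were well above background on the 7 dpi array and 86.1% on the neuron array. No spot was saturated.

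Tet3 itself, with 0.07 on the 7 dpi array, stood close to its MEF level of -0.22 and below the 2.57 of 5 dpi, and was at -0.72 in neurons. A second Tet3 probe was well above background at 1, 3 and 5 dpi but neither on the 7 dpi array nor in neurons or MEF. The remaining probe had -2.78 at 7 dpi and -2.27 in neurons. The treated sample is therefore called the array labelled 7 dpi, and no direction below is tied to a measured Tet3 level.

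Of the 18730 genes, 2588 (13.8%) were at least 2-fold higher on the array labelled 7 dpi than in neurons, 3636 (19.4%) were at least 2-fold lower, and 12506 (66.8%) lay within 2-fold. The median difference over all genes was -0.03. The 41.6% of called genes that were higher became 60.4% when each array was centred on its median. This raised every difference measured on both arrays by one constant and moved the median of all genes to 0.29. After quantile normalization the share was 50.6%. Only the neuron array was well above background for 1557 of the genes, and only the array labelled 7 dpi for 248. At 4-fold the counts were 958 higher (5.11%) and 1654 lower (8.83%). By 16-fold or more, 271 genes were higher and 410 lower, and by 64-fold or more 85 and 78. Across the 16925 genes measured on both arrays the levels correlated at r = 0.84, a value across genes, which are not independent replicates. The gene lists used below are read against the 13.8% and 19.4%.

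The genes furthest apart were those of connective tissue in one direction and of glia and ciliated cells in the other. Agtr2, the type 2 angiotensin receptor, had a level of 5.82 on the array labelled 7 dpi and was not well above background in neurons, so that it was at least 5311-fold higher. Its MEF level was 5.89. Aspn, a small leucine-rich matrix protein, was at least 1095-fold higher, Lrrc17 712-fold higher, the matrix protein Dpt at least 418-fold higher and the platelet-derived growth factor receptor Pdgfra 373-fold higher. Others were not matrix genes: Reg3g, an antimicrobial lectin, was at least 1641-fold higher, the acute phase gene Saa3 579.6-fold higher, and the imprinted growth regulator Dlk1 321-fold higher. In the other direction Mlc1, an astrocyte membrane protein, had a level of 5.06 in neurons, was not well above background on the array labelled 7 dpi, and was at least 2238-fold lower there. The astrocyte filament Gfap was at least 1786-fold lower, the astrocyte potassium channel Kcnj10 at least 864-fold lower and the choroid plexus transport protein Ttr at least 1197-fold lower. Foxj1, the master factor of motile cilia, went from 3.85 in neurons to -5.86 and was 840.5-fold lower. Both ends of the comparison thus hold genes that are not neuronal.

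**Figure D1:**
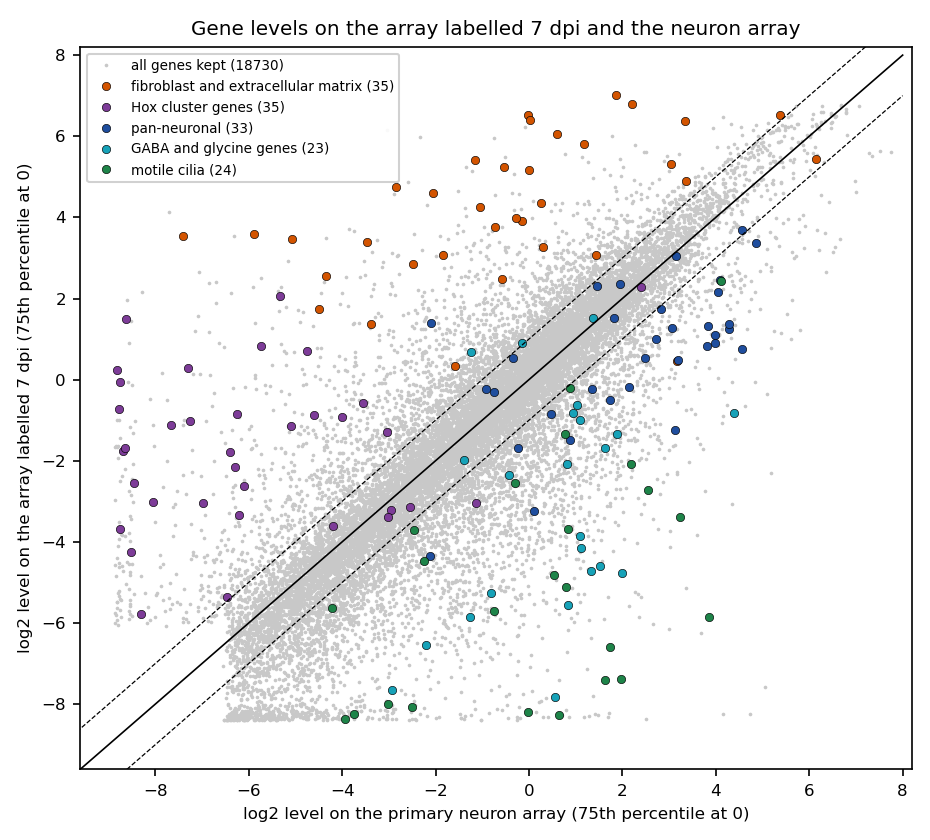
Log2 level of each gene on the neuron array (horizontal) and on the array labelled 7 dpi (vertical), both with the 75th percentile at 0; grey points are the 18730 genes kept, coloured points are 5 gene lists, the solid line marks equal levels and the dashed lines a 2-fold difference. Most fibroblast and Hox genes lie above the lines, and the motile cilia genes and most GABA and glycine genes below. Most pan-neuronal genes also lie below, with a smaller median difference (-1.80).

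Pan-neuronal genes were present on the array labelled 7 dpi but mostly below the primary neurons. Of 33 members, all well above background on both arrays, 1 was at least 2-fold higher, 24 were lower and 8 lay within 2-fold, and the median difference was -1.80. For MEF the median of the same list against the same neuron array was -5.22, and for 5 dpi it was -3.34; these comparisons share the neuron array. The summed signal of the list, in units of each array's 75th percentile, was 34.8 in MEF, 90.1 on the array labelled 7 dpi and 291 in neurons. In bulk RNA, fewer cells with a transcript and less of it in each cell cannot be told apart.

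Tubb3, the neuronal beta tubulin, had a level of -0.85 in MEF, 2.46 on the array labelled 7 dpi and 4.09 in neurons, and was 3.10-fold lower than in neurons. The microtubule protein Map2 had -1.38, 1.32 and 3.84 in the same order and was 5.71-fold lower. Dcx, which marks young migrating neurons, had -5.27, -0.17 and 2.14 and was 4.97-fold lower. In each case the array labelled 7 dpi lay between MEF and neurons. The axonal protein Stmn2 (-3.04 on the log2 scale) and tau (Mapt, -3.79) were further below neurons. Rbfox3, the antigen of the NeuN antibody, was at -3.23 against 0.11 in neurons and was 10.1-fold lower. The splicing factor Nova1 was equal within the array error, at 3.04 and 3.14.

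A small group of neuronal genes was higher than in primary neurons. Nefh (NM_010904, chr11:4938754-4948064 in GRCm38.p6), the heavy chain of the neurofilaments that fill large axons, was not well above background in MEF, had a level of 1.40 on the array labelled 7 dpi and -2.10 in neurons, and was 11.3-fold higher. It was the pan-neuronal member named above as higher. Prph, the intermediate filament peripherin of peripheral and motor neurons, was outside the list. It had -5.68 in MEF, 2.14 at 5 dpi, 0.67 at 7 dpi and -2.28 in neurons, and was 7.73-fold higher than in neurons. Insm1, a zinc finger factor of neuronal and endocrine precursors, was not well above background in MEF and was 3.93-fold higher (0.98 against -1.0).

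**Figure D2:**
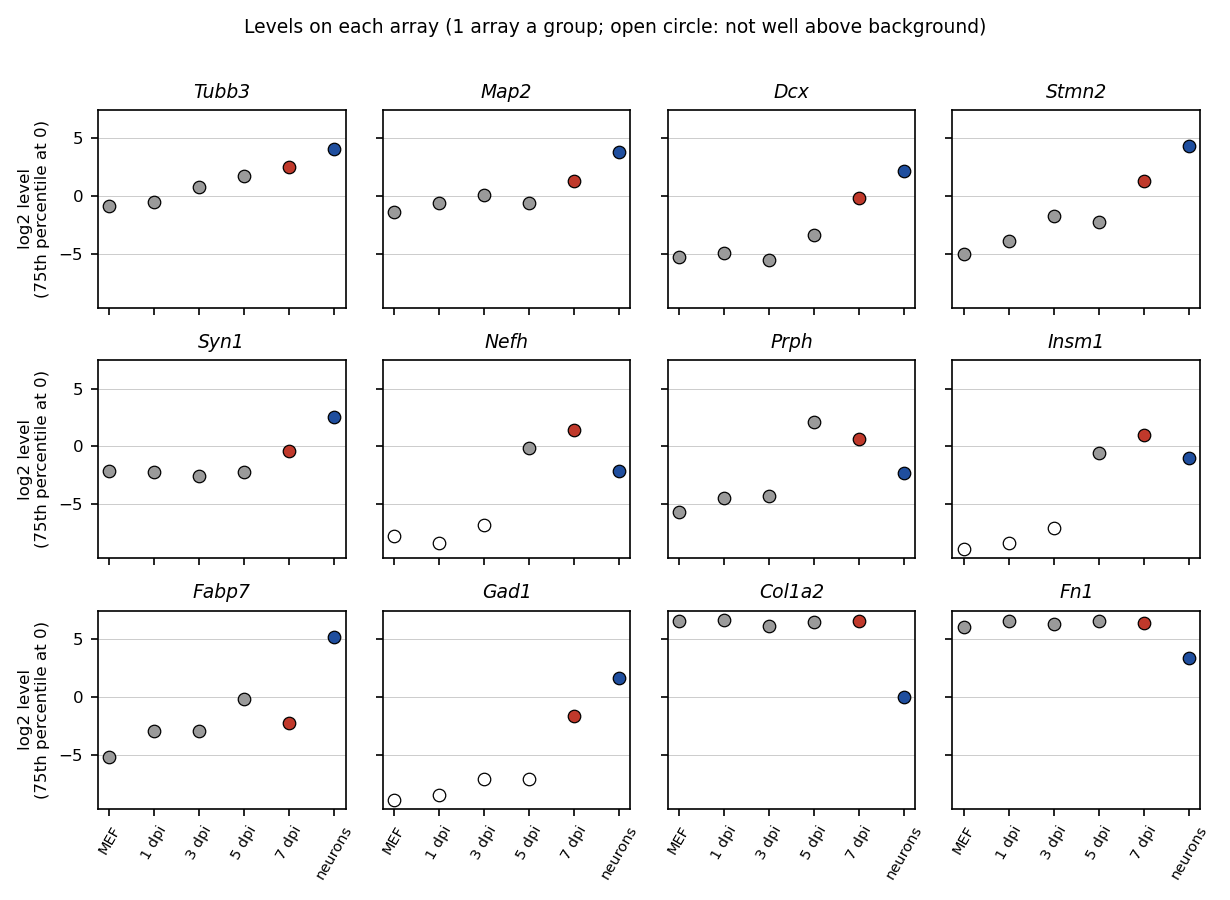
Log2 level (75th percentile at 0) of 12 genes on each of the 6 arrays, 1 point an array; red is the array labelled 7 dpi, blue the neuron array, grey the other arrays, and an open circle was not well above background. Tubb3, Map2, Dcx, Stmn2 and Syn1 on the array labelled 7 dpi lie between MEF and neurons, Nefh, Prph and Insm1 lie above neurons, and Col1a2 and Fn1 stay near their MEF levels.

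Proneural and neuronal transcription factors, which commit cells to the neuronal fate and maintain it, were more often lower than higher. Of 28 kept, 4 were higher (14.3%, near the 13.8% of all genes), 11 lower (39.3%, against 19.4%) and 13 within 2-fold. The median was -0.37 (MEF: -1.88), and -0.006 with median centring. Myt1l, a repressor of non-neuronal genes and a common reprogramming factor, was at -2.88 against 0.04 in neurons, 7.56-fold lower, and was at -6.42 in MEF. The proneural factor Neurog2 (2.12-fold lower) was near the threshold. Neurod1 was 20.7-fold lower, Neurod6, of pyramidal neurons, 28.7-fold lower, and the POU factor Pou3f2, also known as Brn2, 15.2-fold lower. Higher were Insm1, Onecut3 (1.15), Ebf3 (2.07) and Ebf1 (at least 104-fold higher). Ebf1 and Ebf3 were at -0.18 and 1.15 in MEF, so both had signal in the starting cells too. Zeb1, a mesenchymal and progenitor factor, was equal at 1.11 and 1.21.

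The machinery of vesicle release was lower or within 2-fold. Of 32 synaptic vesicle and active zone genes 0 were higher, 20 lower and 12 within 2-fold, with a median of -1.63 (MEF: -3.06). Syn1, which tethers vesicles to the cytoskeleton, was at -0.42 against 2.56 and was 7.87-fold lower. The calcium sensor of release Syt1 was at -0.19 against 3.00, 9.14-fold lower, with -6.48 in MEF. Complexin (Cplx1, -3.03), the vesicle proteins Sv2a (-3.01) and Sv2c (-3.28) and the active zone scaffold Rims2 (-3.04) lay close to one another. Members within 2-fold included Syt7, a slow calcium sensor, at -2.82 against -3.09 and not well above background in MEF.

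Postsynaptic scaffolds had 12 of 19 lower and 0 higher, with a median of -2.01 (-1.23 with normexp background correction) that was close to the -2.13 of MEF. The neuroligin genes for adhesion at the synapse differed from one another. Nlgn1 was 14.8-fold lower and Nlgn3 15.7-fold lower, while Nlgn2 had 3.54 against 3.43 and a MEF level of 3.17. The excitatory scaffold Shank3 was 9.07-fold lower. Camk2b, the neuronal kinase subunit, was 9.43-fold lower (0.31 against 3.55) and was at -4.57 in MEF. Dlg4, which codes for PSD-95, had -1.41 and -1.54.

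Genes of glutamate signalling were lower in 18 of 25 cases and higher in 0, with a median of -1.98 (MEF: -3.10). The vesicular glutamate transporters Slc17a6 and Slc17a7, which mark glutamatergic neurons, were lower. Slc17a6 was at -2.88 against 0.12 (8.02-fold lower) and Slc17a7 at -4.45 against -2.05 (5.28-fold lower). The AMPA receptor subunit Gria1 was at -5.78 against 0.64, 85.8-fold lower, and its MEF level was -5.41. Gria2 was 21.4-fold lower and the metabotropic receptor Grm5 18.0-fold lower. Gria1 thus stood at about its MEF level, while Gria2 was not well above background in MEF and had -4.13 on the array labelled 7 dpi.

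The GABA and glycine list was further from neurons, with a median of -3.32 (MEF: -5.27), and 19 of 23 members lower, 2 higher and 2 within 2-fold. Its enzymes differed. Gad1, the main GABA-synthesising enzyme, was not well above background in MEF, had -1.69 on the array labelled 7 dpi and 1.62 in neurons, and was 9.97-fold lower. Gad2, its synaptic relative, had -4.71 against 1.33 and was 65.8-fold lower. The vesicular transporter Slc32a1 was 84.0-fold lower and the receptor subunit Gabra2 109-fold lower. The members above 2-fold higher were the glycine transporter Slc6a9 (1.06), at 1.22 in MEF, and Gabra3, whose probes disagreed in direction and which is not read further.

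Cholinergic and monoaminergic genes did not lean one way. Of 20 members 6 were higher, 5 lower and 9 within 2-fold, with a median of 0.13 (MEF: -0.91). Slc5a7, the high-affinity choline transporter of cholinergic terminals, was at -2.49 against -6.09, 12.2-fold higher, and at -5.88 in MEF. The nicotinic receptor subunit Chrna4 was at -1.23 against -4.19 (7.80-fold higher) and was not well above background in MEF, and Chrna3, of autonomic ganglia, was at least 4.14-fold higher. Dbh, which makes noradrenaline, was 2.59-fold higher with a MEF level of -3.39 near its -3.20 here. Th, the first enzyme of catecholamine synthesis, was at 0.85 and 0.58, with 0.66 in MEF. Chat, the acetylcholine-synthesising enzyme, was at 2.33 against 4.60 with 1.58 in MEF. The Th probe and the Chat probe gave signal in MEF, where these enzymes are not typical, so their levels are not read as transmitter identity.

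Voltage-gated channels, which shape the action potential, had 3 members higher, 18 lower and 14 within 2-fold of 35, with a median of -1.03 (MEF: -1.82), which was -0.67 with median centring. Scn2a, a main sodium channel of young neurons, was at -1.97 against 2.51 (22.2-fold lower), close to the -2.44 of MEF. The potassium channels Kcna1 and Kcnd3 were at least 56.9-fold lower and 10.5-fold lower. Among the higher members was the T-type calcium channel Cacna1g (6.90-fold higher, 0.09 in MEF and 0.51 here). Scn8a also passed the threshold, but its probes disagreed in direction.

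The genes of the regulated secretory pathway had a median near that of neurons. Granins fill dense-core vesicles, prohormone convertases cut the precursors inside them, and neuropeptides are the product. Of 28 genes 9 were higher, 8 lower and 11 within 2-fold. The median was -0.27, where that of MEF against the same neurons was -2.75. The granin-like Vgf was at -4.17 in MEF, 2.22 on the array labelled 7 dpi and 2.33 in neurons, and secretogranin Scg2 was at 0.99 and 1.37. The convertase Pcsk1 was not well above background in MEF and was 3.47-fold higher than in neurons. Scg3, another secretogranin, was instead 21.2-fold lower, and the carboxypeptidase Cpe was 6.38-fold lower.

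Single peptides lay far on either side. Pomc, the precursor of corticotropin and endorphin, was at -4.00 in MEF, 3.05 on the array labelled 7 dpi and -1.99 in neurons, 33.1-fold higher. Galanin (Gal, NM_010253, chr19:3409915-3414544) was at -1.14, 3.75 and -0.58 and was 20.2-fold higher. Penk, the enkephalin precursor, was 6.01-fold higher, with 0.88 in MEF. Calca, which codes for calcitonin and its gene-related peptide, was 47.1-fold higher by the brighter of its probes, while the other differed by -0.46. Sst, somatostatin, was the lowest of the list, with -5.03 in MEF, -4.12 on the array labelled 7 dpi and 3.01 in neurons, 139.9-fold lower. Npy was 24.1-fold lower and stood at its MEF level (-3.67 and -3.58). The higher and lower peptides were thus separate genes of the same kind.

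**Figure D3:**
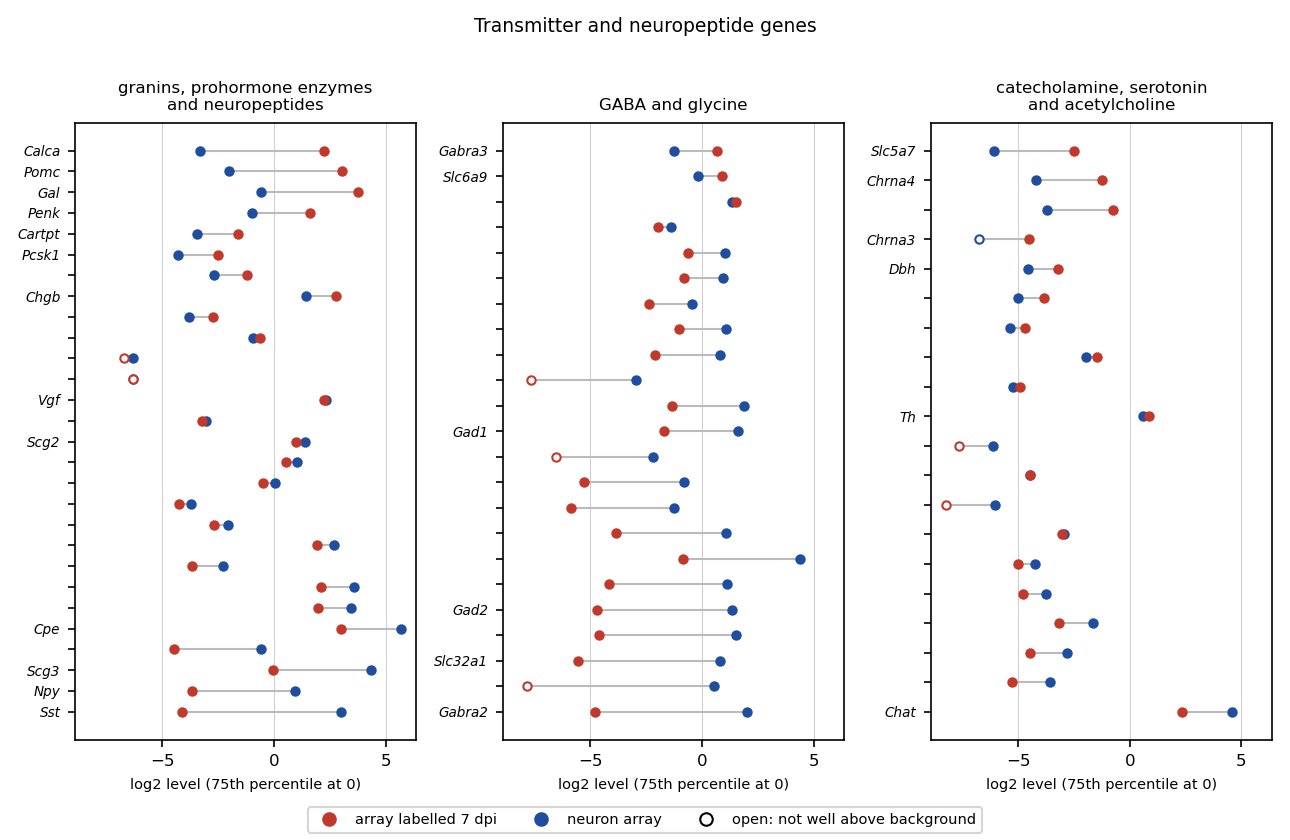
Log2 levels (75th percentile at 0) of the members of 3 lists on the array labelled 7 dpi (red) and the neuron array (blue), sorted by their difference; open circles were not well above background, and only some members are labelled. In the peptide panel Calca, Pomc and Gal lie far to the right on the array labelled 7 dpi and Sst far to the left, while nearly all GABA and glycine genes have the neuron array on the right.

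The promoters of this group were read because the culture medium held forskolin, which raises cyclic AMP, and cyclic AMP acts in part through factors that bind the palindrome TGACGTCA. RefSeq promoters of 250 bases before to 50 after the start (GRCm38.p6) were matched for 14836 of the 18730 genes. The palindrome, which reads the same on both strands, was found in 5 of 22 matched promoters of the peptide and granin list, those of Chgb (named only for this match), Scg2, Pcsk1, Sst and Cartpt, against 2.65% of all matched promoters. The 250 bases before the start of Sst (chr16:23890845-23891094, minus strand) and of Cartpt (chr13:99900684-99900933, minus strand), the precursor of a peptide of energy balance, are shown because they hold the same element, in capitals, in the lowest member of the list and in one that was higher. The element begins 48 bases before the Sst start and 112 before that of Cartpt.
Sst: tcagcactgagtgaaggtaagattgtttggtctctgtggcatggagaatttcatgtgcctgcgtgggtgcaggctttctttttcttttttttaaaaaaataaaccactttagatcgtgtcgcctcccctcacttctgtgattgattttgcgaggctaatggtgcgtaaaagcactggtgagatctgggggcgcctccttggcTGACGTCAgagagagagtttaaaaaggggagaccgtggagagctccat
Cartpt: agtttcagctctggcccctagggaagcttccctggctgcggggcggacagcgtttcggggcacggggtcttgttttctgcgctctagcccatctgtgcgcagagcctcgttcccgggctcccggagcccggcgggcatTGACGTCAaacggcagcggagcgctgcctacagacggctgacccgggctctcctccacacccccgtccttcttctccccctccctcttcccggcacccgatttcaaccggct
Of the genes with this element, Sst was 139.9-fold lower, Scg2 differed by -0.38, and Cartpt, Pcsk1 and Chgb were 3.56-fold higher, 3.47-fold higher and 2.54-fold higher. The shared letters therefore went with no single direction. A match is a description of the letters, and binding was not measured. Over all genes, 1.97% of the promoters of higher genes and 2.27% of those of lower genes held the palindrome, and at 4-fold 1.14% and 2.45%. The peptide and granin share (5 of 22) was the highest of the gene lists, but the palindrome was not particular to them. It was also in 4 of 24 promoters of cytosolic ribosomal proteins, 2 of 13 of imprinted growth genes and 3 of 22 of p53 targets and CDK inhibitors. Immediate early and cyclic AMP-responsive genes had it in 1 of 19, and some lists, such as the Hox genes (0 of 20), in none. A link to forskolin was not tested.

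Genes that respond quickly to activity and to cyclic AMP were also examined, as their products are switched on within minutes of stimulation. Of 26 immediate early and cyclic AMP-responsive genes 2 were higher and 11 lower, with a median of -0.73 (MEF: -0.35). Fos was at 0.47 against 3.60 (8.74-fold lower), Npas4, which responds to neuronal activity, was 10.5-fold lower, and Nr4a2 4.77-fold lower. Sik1, a kinase induced by cyclic AMP, was 3.59-fold higher, and Crem was equal at -1.17 and -1.32.

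Transcription factors that mark position divided more sharply. Forebrain factors had 22 of 30 members lower, 1 higher and 7 within 2-fold. The median was -2.0 (MEF: -2.55), or -1.27 over members measured on both arrays and -1.11 with normexp background correction. All 30 were well above background in neurons and 21 on the array labelled 7 dpi. A gene dim on the array labelled 7 dpi was kept only with signal in neurons, so these counts follow in part from the filter. The cortical factor Lhx2 was at -4.23 in MEF, -3.74 at 7 dpi and 3.02 in neurons, 108-fold lower. Fezf2, of deep-layer projection neurons, was at least 104-fold lower, and the factors Emx1, Six3 and Dlx1 were at least 45.9-fold lower, at least 44.8-fold lower and at least 30.3-fold lower. Lhx8, a factor of basal forebrain cholinergic neurons that also acts in jaw mesenchyme, was the exception at 34.7-fold higher, and its level of -1.24 was near the -1.43 of MEF.

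Spinal, sensory and autonomic factors leaned the other way, with 9 of 25 higher, 1 lower and 15 within 2-fold, and a median of 0.26 (MEF: -0.70); the 2 members with a mean level of -1 or more had a median of -0.08. Pou4f1, a factor of sensory neurons also called Brn3a, was at -4.58 in MEF, -1.57 on the array labelled 7 dpi and -3.22 in neurons, 3.14-fold higher. Ret, the receptor subunit for the GDNF family in enteric, sensory and motor neurons, was at -6.44, -1.95 and -4.31, 5.12-fold higher. Both were above MEF as well as above neurons. The autonomic factors Hand2 and Gata3 were 11.1-fold higher and at least 17.2-fold higher, and En1 was at least 22.2-fold higher, but Hand2, Gata3 and En1 were at -1.49, -3.46 and -3.44 in MEF against -1.0, -2.37 and -2.08 here. Lhx5, the lower member, was at least 7.96-fold lower.

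Hox genes, which encode position along the trunk and limbs and are silent in the forebrain, were higher in 28 of 35 cases, lower in 1 and within 2-fold in 6. All 35 were well above background on the array labelled 7 dpi and 18 in neurons. Of 39 Hox genes with a probe, 35 were kept. A gene dim in neurons was kept only with signal on the array labelled 7 dpi, so these counts follow in part from the filter. The median difference was 3.73, or 3.02 over members measured on both and 2.46 with normexp background correction. For MEF it was 3.47. Hoxc6 was at 1.1 in MEF, 2.06 on the array labelled 7 dpi and -5.32 in neurons, 166-fold higher. Hoxd8, Hoxb2, Hoxb4 and Hoxc9 were not well above background in neurons and were at least 264-fold higher, at least 115-fold higher, at least 109.9-fold higher and at least 89.7-fold higher. Hoxd11 was the lower member, at -3.04 against -1.14, and Hoxa9 was equal. The Hox levels on the array labelled 7 dpi were thus near those of the fibroblasts. Most Hox signals were dim: a filter that kept only genes with a mean level of -1 or more left 1 Hox member, with -0.13.

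**Figure D4:**
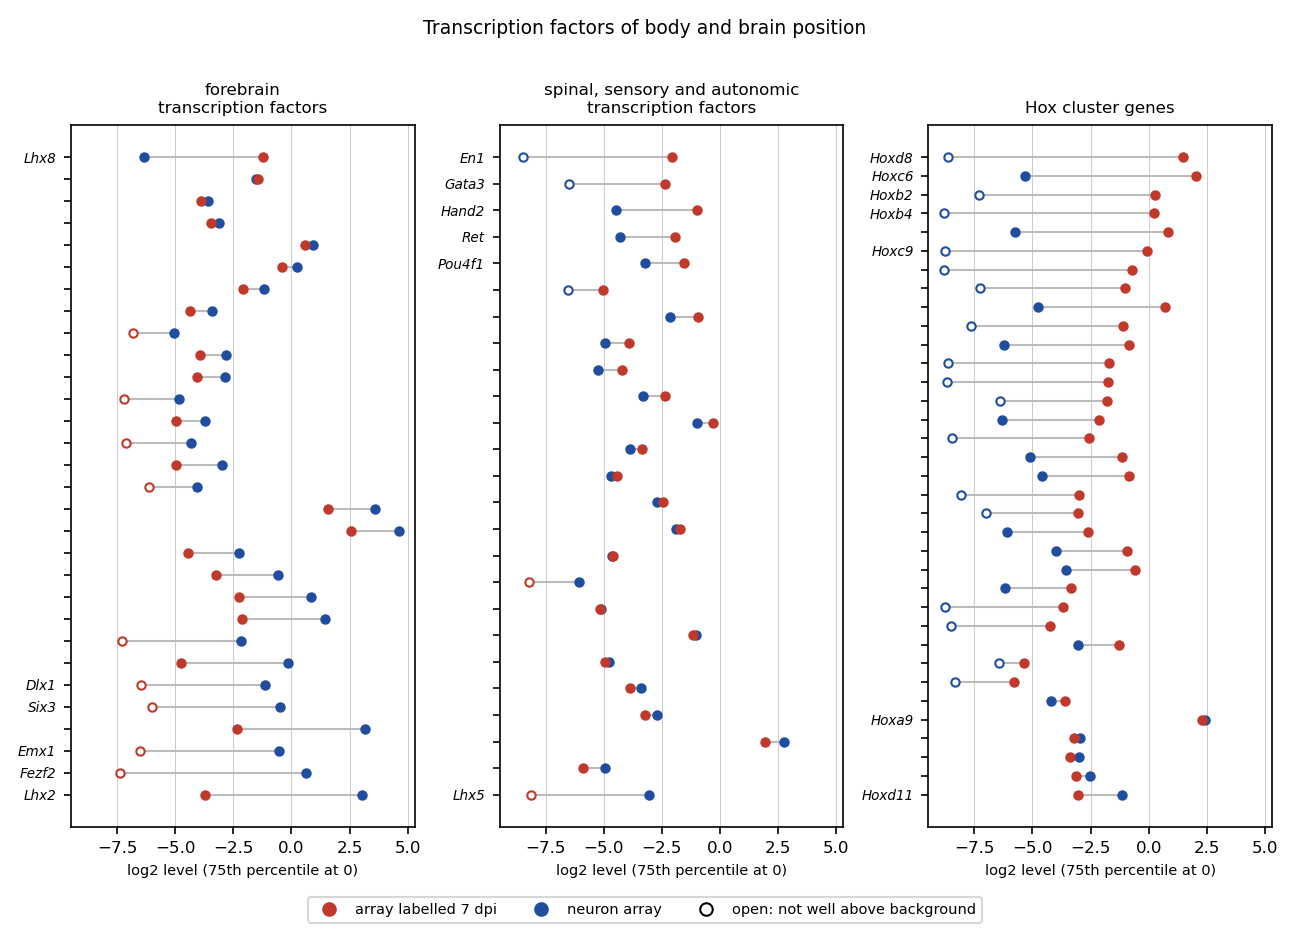
Log2 levels (75th percentile at 0) of forebrain factors, of spinal, sensory and autonomic factors and of Hox genes on the array labelled 7 dpi (red) and the neuron array (blue), sorted by difference; open circles were not well above background, and only some members are labelled. Blue points lie right of red for 22 of 30 forebrain factors by 2-fold or more, and red right of blue for 28 of 35 Hox genes.

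Axon guidance genes, ligands and receptors that steer growing axons and that fibroblasts also use, had 13 higher, 11 lower and 9 within 2-fold of 33, with a median of 0.34 (MEF: 0.46). Among ligands, the secreted repellents Slit3 (18.2-fold higher), Sema3d (10.4-fold higher) and Sema3a (4.84-fold higher) were higher, at 1.52, -1.02 and 0.54 in MEF against 1.93, -1.24 and -0.13 here. Efnb3, an ephrin, was 25.1-fold lower. Among receptors, Plxna4 was 7.02-fold lower and the netrin receptor Unc5a 4.31-fold lower; Unc5a was at -5.44 in MEF, -1.75 here and 0.36 in neurons.

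The neuron array carried the markers of other neural cells, and most of these were lower on the array labelled 7 dpi. Of 23 progenitor and radial glia genes 15 were lower, 2 higher and 6 within 2-fold, with a median of -3.02, or -1.42 over members measured on both arrays (MEF: -3.71). Their summed signal was 27.4 times the array's 75th percentile on the array labelled 7 dpi and 159 times in neurons. Fabp7, the fatty acid binding protein of radial glia, was at -0.15 at 5 dpi, -2.30 at 7 dpi and 5.19 in neurons, 179.6-fold lower. Sox2 and Nr2e1, which keep neural stem cells in their state, were not well above background on the array labelled 7 dpi and were at least 219-fold lower and at least 186-fold lower. Dll3, a Notch ligand of newly formed neurons, was the opposite case at 2.45 against -1.73, 18.2-fold higher, and at -4.89 in MEF. Dll1 was within 2-fold (-1.38 and -1.0) and also above its MEF level of -5.05.

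Astrocyte genes were lower in 17 of 20 cases and higher in 0, with a median of -2.94 (MEF: -3.21). All 20 were well above background in neurons and 16 on the array labelled 7 dpi, and the summed signal was 181 and 17.04 times the 75th percentile. Besides Gfap and Mlc1, the glycolytic isoform Aldoc was at -0.37 against 5.10 (44.3-fold lower) and the glutamate transporter Slc1a2 was 38.7-fold lower. Aldoc on the array labelled 7 dpi equalled its MEF level of -0.41. The gap junction gene Gja1, shared by astrocytes and fibroblasts, was at 1.85 and 2.01.

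In the oligodendrocyte list the lineage factors Olig1 (at least 383-fold lower) and Olig2 (14.9-fold lower) were lower, Sox10 was at -1.49 and -1.31, and the list's median was -0.29 with 6 of 18 lower and 1 higher. That median became 0.08 with median centring. The higher member, Pdgfra, is also a fibroblast gene. Choroid plexus genes had 9 of 14 lower and 2 higher (median -1.98, or -1.28 over members measured on both arrays); after Ttr came the folate receptor Folr1 at 32.3-fold lower. Prlr was 153-fold higher, with 1.12 in MEF. Schwann and crest glia genes had 3 higher and 7 lower of 15; their median of -0.72 was -0.17 over members measured on both arrays, -0.14 after quantile normalization and 1.02 over the 3 members with a mean level of -1 or more.

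All 24 motile cilia genes were lower, with a median of -4.39 and -4.27 over those measured on both arrays. In MEF the median was -4.75. Motile cilia are beating organelles of ependyma and choroid plexus that neurons do not carry. Every member was well above background on the neuron array and 15 on the array labelled 7 dpi, and the summed signals were 75.2 and 7.68 times the 75th percentile. The ciliary filament gene Tekt1 was at least 263-fold lower, the dynein light chain Dnali1 at least 223-fold lower and the radial spoke gene Rsph1 97.9-fold lower (-3.38 against 3.23). Axonemal dyneins (Dnah symbols) had the lowest median of 326 symbol families, -3.07 over 10 genes with 9 lower, followed by the Cfap family at -2.86 over 28 genes. With normexp the Dnah median was -1.69, above Cfap (-1.93) and the metabotropic glutamate receptors Grm (-1.91), so that it was no longer the lowest. The sample labelled as neurons thus held markers of progenitors, astrocytes and ciliated cells beside neuronal ones, and their part in the neuronal differences above was not tested.

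Fibroblast and matrix genes stood at the other end, at levels near those of MEF. Of 35 genes 33 were higher, 1 lower and 1 within 2-fold, with a median of 4.92, next to 4.5 for MEF against the same neurons. The summed signal was 1063 times the 75th percentile in MEF, 1179 on the array labelled 7 dpi and 176 in neurons, and the neuron sum includes Vim and Sparc, which many cells express. Col1a1, the main fibrillar collagen chain, was at 6.70, 6.80 and 2.21, 24.2-fold higher. Its partner Col1a2 was at 6.54, 6.53 and -0.03, 94.1-fold higher. Fibronectin (Fn1) was 8.14-fold higher. The collagen-binding protein Lum was 192-fold higher and Fap, a protease of activated fibroblasts, 121-fold higher, with 0.89 in MEF against 2.57 here. Thy1, shared by fibroblasts and neurons, was 2.94-fold higher. The lower member was S100a4 (6.5-fold lower), and Vim, the filament of mesenchymal cells and progenitors, was within 2-fold at 5.44 and 6.14.

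Transcription factors of mesenchyme were likewise higher in 22 of 31 cases, lower in 1 and within 2-fold in 8, with a median of 2.95 (MEF: 3.24). Twist2, of dermal and skeletal mesenchyme, was at 1.81 in MEF, 2.50 on the array labelled 7 dpi and -5.74 in neurons, 303-fold higher. Tbx15 was 274-fold higher, and the factors Snai2 and Snai1 of the epithelial to mesenchymal transition were 87.4-fold higher and 39.5-fold higher. The limb factor Pitx1 was 59.6-fold higher. The AP-1 member Fosl1 was the lower one, 4.56-fold lower.

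Both contractile lists had more higher than lower members. In the smooth muscle list 6 of 22 were higher, 2 lower and 14 within 2-fold (median 0.19); Cnn1, the calponin of smooth muscle, was at -1.59 against 1.41, 7.99-fold lower. Ankrd1, a cardiac stress protein, was at -4.03 in MEF, 0.26 on the array labelled 7 dpi and -4.85 in neurons, 34.5-fold higher. Skeletal and cardiac muscle genes had 12 of 30 higher, 6 lower and 12 within 2-fold (median 0.30; MEF: -0.71). The higher members included genes of embryonic muscle. Embryonic myosin Myh3 was at -3.65, 2.14 and -4.46, 97.2-fold higher, cardiac troponin Tnnt2 was at least 276-fold higher and the myosin light chain Myl1 at least 346-fold higher. Actc1, cardiac actin, was at -2.98, 1.71 and -4.94, 100.5-fold higher. These genes exceeded MEF as well as neurons. Its promoter (250 bases before the start, chr2:114052876-114053125, minus strand) is shown for the CArG box, the site of serum response factor in muscle promoters, in capitals, whose first base lies 47 bases before the start.
Actc1: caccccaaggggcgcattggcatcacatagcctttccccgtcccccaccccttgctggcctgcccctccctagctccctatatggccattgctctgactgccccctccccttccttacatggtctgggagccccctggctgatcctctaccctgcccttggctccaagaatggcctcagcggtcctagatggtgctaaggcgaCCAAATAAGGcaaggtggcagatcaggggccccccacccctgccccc
A CArG box was found in 1.92% of the promoters of higher genes, 1.24% of those of lower genes and 1.45% of all (1.71% and 0.79% for higher and lower genes at 4-fold). It was in 4 of 17 matched smooth muscle promoters, those of Cnn2 (0.73), Srf (0.26), Vcl (0.14) and Myl9 (-0.38). Of 25 skeletal and cardiac muscle promoters 2 held it, those of Actc1 and Acta1 (0.99). Among these genes only Actc1 passed 2-fold.

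Blood and vessel markers were mostly low on both arrays. Macrophage genes had 13 of 24 lower, 2 higher and 9 within 2-fold, with a median of -1.19, or -0.85 over members measured on both arrays; MEF, with a median of 5.98 against the same neurons, held far more of them. The summed signal was 403 times the 75th percentile in MEF, 29.8 on the array labelled 7 dpi and 26.5 in neurons. C1qa, a complement chain made by macrophages, was at 4.60, -4.91 and -3.17. The median of this list was 0.23 over the 5 members with a mean level of -1 or more. Tmem119, a microglial marker in the brain that is also made by bone and connective tissue cells, was 188-fold higher and at 2.60 in MEF. Endothelial genes had 3 higher and 3 lower of 13 (median 0.19), with Pecam1 at -0.70 and -0.98. Erythroid genes had 1 higher and 2 lower of 10 (median -0.30) and epithelial genes 3 higher and 2 lower of 15 (median -0.09, 0.27 with median centring).

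Interferon-stimulated genes, the antiviral programme of most cells, were higher in 24 of 30 cases and lower in 0, with a median of 2.48. In MEF the median was 1.15, and at 5 dpi 2.79. Oas1a, an oligoadenylate synthetase that senses double-stranded RNA, was at 2.18 in MEF, 2.10 on the array labelled 7 dpi and -2.97 in neurons, 33.5-fold higher. Oasl1 was at -2.79, 0.58 and -4.06, 24.9-fold higher, and the ubiquitin-like Isg15 at 1.48, 4.19 and 0.68, 11.4-fold higher. Oas1a stood at its MEF level and Oasl1 and Isg15 above it. Irf7, the factor that amplifies interferon production, was 15.99-fold higher and Bst2, which tethers budding viruses, 15.1-fold higher. Cxcl10 was within 2-fold (1.25 and 0.92), as were Gbp2 and Ifit2.

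The promoter of Oas1a (250 bases before the start, chr5:120907526-120907775, minus strand) is shown because it carries overlapping copies of GAAANNGAA, the core of the element bound by interferon-activated factors, in capitals; the first begins 20 bases before the start.
Oas1a: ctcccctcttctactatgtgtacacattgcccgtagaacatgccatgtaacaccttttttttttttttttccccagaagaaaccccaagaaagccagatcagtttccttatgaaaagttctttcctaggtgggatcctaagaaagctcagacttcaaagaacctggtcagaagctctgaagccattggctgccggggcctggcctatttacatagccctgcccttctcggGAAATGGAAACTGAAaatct
The motif was searched on both strands. It was found in 15 of 22 matched promoters of the interferon list, against 7.72% of all 14836 promoters. The share was 9.40% for higher genes and 6.79% for lower genes (11.98% and 7.35% at 4-fold). The interferon share was the highest of the gene lists, but the match was not particular to interferon genes. It was also in 9 of 24 promoters of cytosolic ribosomal proteins, 4 of 17 of antigen presentation genes and 4 of 22 of peptide and granin genes. Some lists, such as that of glutamate signalling (0 of 16), held no match. Genes with the motif were not all higher: Oas3, the lowest of the interferon list and named only for this match, differed by -0.91, and Cxcl10, Gbp2 and Rsad2 by 0.34, -0.19 and 0.76. The printed promoters were chosen after their values were seen.

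Antigen presentation went the same way at smaller size, with 10 of 22 higher, 1 lower and a median of 0.86 (MEF: 1.1). The class I light chain B2m was at 6.24 against 4.54 (3.24-fold higher) and the peptide transporter Tap1 was 4.38-fold higher. The class II genes H2-Aa and H2-Eb1 were within 2-fold (-0.37 and 0.05) and H2-Ab1 was 2.60-fold lower. Of 23 inflammatory and chemokine genes 13 were higher and 1 lower (median 1.13; MEF: 0.04). Besides Saa3, at 2.98 in MEF, 6.15 on the array labelled 7 dpi and -3.03 in neurons, the neutrophil chemokine Cxcl5 was at 0.69, 4.64 and -1.52, 71.5-fold higher. The monocyte chemokine Ccl2 was at 1.00, 5.50 and 1.13, 20.7-fold higher, and interleukin 6 (Il6) was 58.4-fold higher. These were above MEF too. The lower member was Cx3cl1, the chemokine that neurons present to microglia, at -2.45 against 1.87, 19.9-fold lower.

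Cell cycle genes had 9 of 32 higher and 0 lower, with a median of 0.63 (MEF: -0.05). The mitotic genes led: Plk1 was at 0.58 against -1.87 (5.45-fold higher), Bub1b 3.83-fold higher and Aurka 3.40-fold higher. Replication genes such as Mcm2 (1.15 and 1.11) and Mcm4 (1.63 and 1.5) were equal within the array error. Among p53 targets and CDK inhibitors 4 of 27 were higher, 3 lower and 20 within 2-fold (median 0.52). Cdkn2a, the locus of p16 and p19Arf, was at 0.10 in MEF, 2.17 on the array labelled 7 dpi and -0.94 in neurons, 8.65-fold higher, and the imprinted inhibitor Cdkn1c was 31.3-fold higher.

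Regulators of the epigenetic state lay mostly within 2-fold. Of 21 TET, DNMT and methyl-CpG reader genes 19 did, and the median was -0.09, or 0.27 with median centring. Tet1 and Tet2, the paralogs of Tet3, differed by -0.35 and -0.19, the de novo methyltransferase Dnmt3a by -0.16 and the maintenance enzyme Dnmt1 by -0.09. Mbd1 was 2.29-fold higher and the cytidine deaminase Apobec1 3.43-fold lower. The list of the REST complex, which silences neuronal genes outside neurons, and of barrier genes such as small phosphatases had 5 of 15 higher and 0 lower (median 0.59). Ptbp1, listed with them but a splicing repressor of non-neuronal cells, was at 1.47 against 0.15, 2.50-fold higher, with 1.44 in MEF. Ctdsp2 was 2.35-fold higher and the corepressor Rcor2 3.97-fold higher.

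Within the BAF chromatin remodeller, neurons exchange the progenitor subunits for neuronal ones. The neuronal subunits were lower on the array labelled 7 dpi: Actl6b was at -6.06 in MEF, -3.72 here and -1.44 in neurons, 4.87-fold lower. Dpf1 was at -2.72, -2.44 and 0.70, 8.81-fold lower, Ss18l1 was 3.22-fold lower and Dpf3 at least 4.21-fold lower. The core subunits Smarca4 (0.18) and Arid1a (0.03) were equal within the array error, and Smarcc1 was 3.68-fold higher. Of 17 genes 5 were lower, 1 higher and 11 within 2-fold (median 0.08, -0.12 after quantile normalization).

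Lists of growth and metabolism differed in size. Cytosolic ribosomal proteins had 16 of 33 higher and 0 lower with a median of 0.98 (MEF: 1.07), and single members differed by 0.49 for Rpl3 to 1.55 for Rps19; the median was 0.52 after quantile normalization. Cholesterol genes had 6 of 24 higher and 0 lower (median 0.63). Glycolysis and hypoxia genes had 3 higher and 6 lower of 25 (median 0.11, -0.32 after quantile normalization). Slc2a3, the neuronal glucose transporter, was at -2.76 against 1.66, 21.4-fold lower, and Slc16a3, a lactate exporter of glycolytic cells, was 7.74-fold higher. Imprinted growth genes were higher in 10 of 17 (median 2.14; MEF: 1.84). That median is the value of Meg3 (named only for this), whose 3 probes ran from -1.61 to 2.14, and with the mean over probes it was 1.24. Besides Dlk1, Igf2 was 21.1-fold higher, while the neuronal imprinted genes Nnat (8.21-fold lower) and Snrpn (2.92-fold lower) were lower. Of 24 housekeeping genes 21 lay within 2-fold (median 0.13); Actb was at 6.76 and 6.69 and Gapdh at 6.56 and 6.47.

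**Figure D5:**
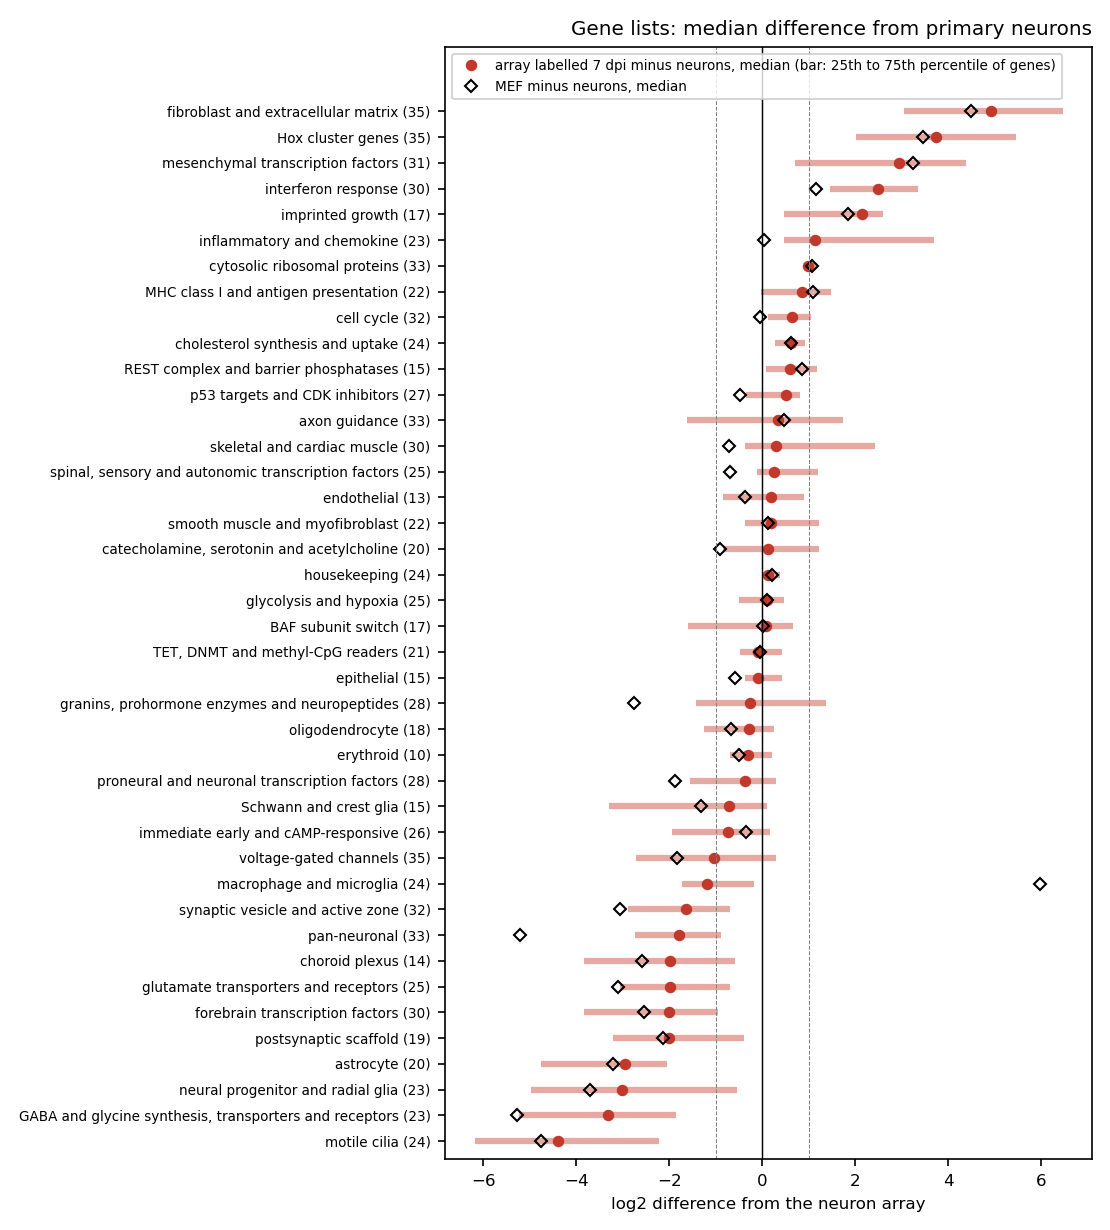
Median log2 difference from the neuron array over the genes kept in each of 41 lists (number in brackets); red points and bars are the array labelled 7 dpi with the 25th to 75th percentile of genes, open diamonds are MEF, and dashed lines mark 2-fold. The pan-neuronal median is -1.80 on the array labelled 7 dpi and -5.22 in MEF, and the fibroblast medians are 4.92 and 4.5.

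Families of genes that share a symbol stem, which need no chosen list, were ranked too. On the deposited values the highest medians among 326 families of 8 or more genes were those of the Mup genes (5.16, 10 of 10 higher), Hoxb (5.15, 8 of 8), Hoxc (3.81), Hoxd (3.54) and Ifi (2.96). A member dim on 1 of both arrays was kept only with signal on the other. The counts and medians of the families, high or low, thus follow in part from the filter. Mup genes code for major urinary proteins and are near-identical copies, so that probes may read several of them and their values are uncertain one by one. Mup18 was at 1.44 in MEF, 2.65 on the array labelled 7 dpi and not well above background in neurons. The lowest, after the Dnah and Cfap families, were the metabotropic glutamate receptors Grm (-2.66, 5 of 8 lower), Efcab (-1.70) and the beta tubulins Tubb (-1.63, 6 of 9 lower).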

How the data were processed

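RNA from 6 samples was hybridised to 1 single-colour Agilent array each, labelled with Cy3, and the arrays labelled 7 dpi and primary neurons were compared. Per the submitters' processing notes, the scanner software was Agilent Feature Extraction, version 11.0.1.1. Its processed intensity, as deposited, is the spot signal after background correction, and the flags are those of the same software, per the file headers. The log2 values compared are those of the authors' deposited series table, with the 75th percentile of each array at 0; the step that made it is not stated in the sources used here. They lay within 0.01 of the log2 processed signal centred the same way for 99.8% to 99.9% of each array's probes. The neuron scanner file gives signals to 3 significant digits. No depth exists for arrays, and their number limits the precision.

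Of 39429 probes, 27234 (69.1%) were given a symbol through their RefSeq accession (GRCm38.p6) and 12195 were not used by name; of the unnamed, 9819 were kept, with 964 at least 2-fold higher and 1826 lower. For a gene with several probes, the kept probe with the highest mean processed signal was used (4895 genes; the probes of 51 passed 2-fold in both directions). A bound was taken against the higher of the dim probe's own value and the lowest value well above background on that array (-6.07 at 7 dpi, -6.55 in neurons). A bound of the opposite sign was counted as within 2-fold.

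The members and the 41 gene lists were chosen with earlier results of these data known. The genes named are 26 fixed ones, the 15 furthest in each direction without predicted names or outlier spots, and per list up to 6 in each direction past 2-fold and 4 nearest to 0. A few of these genes are not reported here. No test was run, as each group has 1 array. The calling was tried on simulated data over 17201 genes. Of genes made 1.5 higher or lower on the log2 scale, 98% and 96% were called (100% at 3). Of 17001 unchanged genes 6 were called. The simulated reference was the array labelled 7 dpi with noise from the scanner error model and the same background flags. Spread between cultures, a shift in scaling and bounds were absent, so these shares give no false-call rate for the real pair. Python 3.11.15, pandas 2.3.3, R 4.3.3 and limma 3.58.1 (normexp) were used. The alternatives were other sources, background corrections, scalings, filters, probe rules and a 4-fold threshold. Promoters were matched by symbol.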

Additional observations from a re-analysis of the deposited data

How the results depend on the processing

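The counts of higher and lower genes stayed within 1.5 times under the scanner files' signals, normexp, quantile normalization, the filters on background, the mean over probes and the removal of outlier spots. The excess of lower genes did not hold under quantile normalization, with 3205 higher and 3133 lower (50.6% higher). With median centring 4087 genes were higher and 60.4% of called genes were. Among genes with a mean level of -1 or more, 1485 were higher and 1159 lower, and 56.2% of called genes were higher. At 4-fold, 958 were higher and 1654 lower. Under that brightness filter the Hox median turned to -0.13 (1 gene) and the macrophage median to 0.23 (5 genes), and the glutamate median was -0.62 (4 genes). There the smaller medians of the oligodendrocyte (0.33, 4 genes), Schwann (1.02, 3 genes), cholinergic and monoaminergic (-0.9985, 2 genes), spinal (-0.08, 2 genes), erythroid (0.29, 1 gene), epithelial (0.28, 1 gene) and TET lists (0.07) also changed sign. With the mean over probes, Gabra3 was -0.60, Scn8a -0.18 and Ttn 0.24, each opposite to its brightest probe. Of 410 list medians under alternatives, 280 moved by less than the median array error, 128 moved more and, of those past 2-fold, 2 turned sign. Smaller medians that changed sign with the scaling stand beside their lists, and the TET median was 0.03 with the mean over probes. All 41 moved with median centring, which adds one constant to differences measured on both arrays. Of 4034 values of named genes, 2979 stayed within the error and, of those past 2-fold, 3 turned sign. Scaling alternatives for the 10 symbol families, added after the data were seen, kept each direction; normexp gave the Dnah median as -1.69, no longer the lowest, and the Hoxd median as 1.81. No paired analysis was possible because each group has 1 array. The cause of these shifts was not tested. Signal over background limits the dim genes, and 1805 genes have only a bound or none.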

Other observations

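Gene length, CG count and TATA box share of promoters also differed between the called groups, while the E-box shares were close at 2-fold. These are descriptions of genes that are not independent. The median length of the gene in RefSeq was 28432 bases for the 3468 lower genes with a length, 20473 for the 2522 higher genes and 18254 for the 11943 genes within 2-fold. The promoters of lower genes held a median of 14 CG dinucleotides in 300 bases, those of higher genes 16 and those within 2-fold 17. A TATA box (TATAAA on either strand) was found in 13.1% of the promoters of higher genes, 10.7% of those of lower genes and 11.3% of all; at 4-fold these shares were 15.8% for higher and 9.79% for lower genes. The E-box CAGCTG, a site of proneural and myogenic factors, was in 16.8% of the promoters of higher genes, 16.95% of those of lower genes and 15.7% of all, and at 4-fold in 19.8% of higher and 15.7% of lower genes.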
